A study of Mus musculus with 16 samples.

Results

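Sperm of mice held 20 abundant small RNA families that had no read in libraries made from RNA cut out of a gel at 30 to 40 nt, of 1100331 families found in the 4 sperm libraries. A family is the set of all sequences that share their first 15 bases. A family was counted as abundant when it reached 1000 RPM (reads scaled to a library of 1000000) in whole sperm of males on a normal diet, and 80 families did. The 20 families are 25% of those 80, and the other 60 had reads in at least 1 gel library. Among the 576 families of at least 100 RPM the share without gel reads was 35.9%. The level in normal-diet sperm and the absence from the gel libraries are the values the 20 were chosen by, so both are described below and support nothing. Some of the 20 are the same RNA stretch begun 1 or 2 bases later, and they fall into 16 groups of starts within 3 bases of each other.

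The sperm came from C57BL/6J males bought at 5 weeks of age and given either a high-fat diet (HFD, D12492) or a normal diet (ND, Diet 1415). Mature sperm was released from the cauda epididymis, treated with a detergent buffer that lyses somatic cells, and its RNA was made into small RNA libraries with a TruSeq kit. The whole sperm libraries used total RNA, and the gel libraries used RNA of 30 to 40 nt excised from a denaturing polyacrylamide gel. There was 1 library per diet and kind of RNA, and the number of males behind each is not given, so no value below carries a spread between animals. All intervals are 95% intervals for counting error only, and reads without molecular identifiers are not independent molecules. Because RNA was taken from bulk sperm, fewer cells with an RNA and less of it per cell cannot be told apart, and no marker of sperm or of other cells was checked in these small RNA lists.

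The whole sperm libraries held 9517720 reads (ND) and 9539556 reads (HFD), and the gel libraries held 10368455 (ND) and 10605324 (HFD). All listed sequences were 18 to 44 nt long. Reads of 30 to 40 nt made up 52.6% of whole ND sperm and 47.2% of whole HFD sperm, against 76.0% and 63.8% of the gel libraries. The gel libraries held few rare sequences: 36.0% (ND) and 34.4% (HFD) of their sequences had a single read, against 73.0% and 73.3% in whole sperm. Among gel sequences of at least 5 reads the commonest count was 33 reads in ND and 19 in HFD, while in both whole sperm libraries it was 5.

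Transfer RNA (tRNA) carries amino acids to the ribosome and folds into a cloverleaf. Its 5′ and 3′ ends pair in the acceptor stem, the anticodon loop lies in the middle, and the T arm, a short stem with a loop that begins TTC, lies toward the 3′ end. The bases CCA are added to the 3′ end of every mature tRNA after transcription. Mature sperm of mice is known to be rich in fragments from the 5′ side of tRNA, cut near the anticodon, while fragments from the 3′ side carry the T arm and may carry CCA. The adenosine that follows TTC and a purine in the T loop is methylated in many tRNAs, and reverse transcriptases often stop or write another base there.

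The most abundant sequences of the families show what most of them were. Of the 20 families, 17 had the T arm in their most abundant sequence: the letters GTTCG or GTTCA, then any 3 bases and a C, with the 4 bases before and after able to pair (G with T allowed). This pattern was searched on the strand of the read and was set after the sequences had been seen. It was found in 10 of the other 60 abundant families, in 33.8% of all 80, and in 19.6% of the 576 families of at least 100 RPM in ND. The amino acid in each name below rests on general knowledge of tRNA sequences, since no tRNA reference was used here, and a, b and c tell apart families of the same amino acid. The 12 most abundant families are shown by their most abundant ND sequence, with the start of the T loop and a final CCA in capitals.
Thr-a: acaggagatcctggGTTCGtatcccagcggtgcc
Lys: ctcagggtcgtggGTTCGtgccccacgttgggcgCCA
Pro-a: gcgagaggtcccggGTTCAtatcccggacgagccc
Ala: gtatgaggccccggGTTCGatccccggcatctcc
Arg-a: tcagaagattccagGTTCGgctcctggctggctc
Met: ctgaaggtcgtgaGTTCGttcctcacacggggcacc
Pro-b: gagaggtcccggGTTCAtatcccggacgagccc
Arg-b: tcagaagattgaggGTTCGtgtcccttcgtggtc
His: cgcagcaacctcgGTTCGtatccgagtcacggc
miR-34c: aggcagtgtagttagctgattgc
Val: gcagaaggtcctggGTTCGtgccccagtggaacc
Thr-b: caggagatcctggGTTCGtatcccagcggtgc

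These sequences share a layout: 11 of the 12 begin beside the anticodon loop, pass through the T arm and stop within a few bases of the end of the tRNA. Thr-b and Thr-a are one stretch begun 1 base apart, and Pro-b and Pro-a begin 2 bases apart. The exception is the family that begins as the microRNA miR-34c-5p does, a short RNA known from the male germ line. That name rests on general knowledge and not on a match to a table. The other 8 families, at 1682 RPM or less in ND, comprised 6 with the T arm (3 read as Thr and 3 as Arg) and 2 without it. Of the latter, 1 lay at the 5′ side of a tRNA, and is shown because it differs from the rest.
Ser-5′: gcagcgatggccgagtggttaagg

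Absence from the gel libraries was measured against deep libraries. The Thr-a family had 376702 reads in whole ND sperm and 54483 in whole HFD sperm, and 0 in each gel library. A count of 0 allows up to 3 reads, which is 0.289 RPM in the ND gel library and 0.283 RPM in the HFD gel library. That floor assumes that reads were drawn one by one, and 3 times the commonest count of the gel libraries would be 9.55 RPM (ND) and 5.37 RPM (HFD). All 20 had at least 1000 RPM in whole ND sperm by the rule that chose them. That they lie above both limits was therefore fixed by the choice.

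The first 15 bases could also lie inside a gel read that begins earlier. For 7 families no gel read held them at any position, among them Pro-a, His, miR-34c, Ser-5′ and both Thr families that begin with accgaagatc. For Thr-a, 69 reads in 3 sequences of the ND gel library held them, and for Lys 116 reads in 4 sequences. The Met family was different in kind, with 1485 reads in the ND gel library and 768 in the HFD one, in 45 sequences. All of them begin 1 base earlier, and they belong to the abundant family with that start, which had 2254 reads in the gel libraries (143 RPM in ND and 72.4 RPM in HFD). So the absence of the Met family is the absence of a start, not of the RNA stretch. The Pro stretch likewise has a start between Pro-a and Pro-b with 41 reads, all in the ND gel library. The start 1 base before the Thr family that begins ccaggggtcgcgagt had 35 reads, all in the HFD gel library. For the Arg family that begins aaaggttccgggttc, 36 reads of the ND gel library begin 1 base earlier.

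Families with a T arm were scarce in the gel libraries beyond the 17. With the 20 families left out, 16.7% of the remaining 30-40 nt reads of whole ND sperm held the pattern, against 0.480% of the 30-40 nt reads of the ND gel library. In HFD the shares were 6.86% and 0.411%. The 10 abundant T-arm families with gel reads had a median of 21.1 RPM in the ND gel library and 15.3 RPM in the HFD one. Over all 31 abundant families with gel reads and a mean length of 30 to 40 nt, these 10 included, the medians were 143 and 72.4 RPM. Fewer than 100 gel reads were found for 4 of the 10 and for 5 of the 31. Low gel levels were not confined to the T arm. Among the 31, the family beginning gggggtgtagctcag lacks it and had 11.8 RPM (ND) and 6.60 RPM (HFD) in the gel libraries. Another without it, beginning ggctctttggtctag, had 3.76 and 4.81 RPM.

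Length did not set the 17 families apart from the gel range. In whole ND sperm 95.5% of the reads of all 20 families were 30 to 40 nt long (95.5 to 95.6), and 99.8% of the reads of the 17 (99.8 to 99.8). In whole HFD sperm the shares were 76.2% (76.0 to 76.4) and 99.0% (98.9 to 99.0). The mean length lay between 30 and 40 nt in 18 of the 20 families. The remaining 2 were miR-34c, with a mean of 22.5 nt and no read of 30 to 40 nt in ND, and Ser-5′, with a mean of 23.3 nt and 2.82% of reads in that range. These short families weighed more in the HFD sum, where the long families were lower.

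In whole sperm the 20 families added up to 94593 RPM (ND) and 22698 RPM (HFD). They made up 9.46% of the ND library and 2.27% of the HFD library, an HFD over ND ratio of 0.240 (0.239 to 0.241). For the other 60 abundant families the ratio was 0.946 (0.944 to 0.947). The ND level is part of the rule and also the base of these ratios, so the choice itself favours families that are lower in HFD. By the same count of 80 families, 26.2% were at least 2 times lower in HFD. Among the 20 it was 15, and among the other 60 it was 6 (10% of them). At least 2 times higher were 0 of the 20, where 3.75% of the 80 were. The median family ratio was 0.240 for the 20 families and 0.991 for the other 60.

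Choosing by the HFD library gives a smaller difference. Of the 69 families of at least 1000 RPM in whole HFD sperm, 10 had no gel read, and 7 of these are among the 20. Their summed ratio was 0.370 (0.368 to 0.371), and 3 of the 10 were at least 2 times lower in HFD, beside 8.7% of the 69. That sum rests on the Thr family shown first (Thr-a): without it the other 9 added up to 18388 RPM (ND) and 15709 RPM (HFD), a ratio of 0.854 (0.848 to 0.860). Of the 10 families 6 were below 1 and 4 above it. The size of the difference and the count of families at least 2 times lower therefore depend on which library sets the level.

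The difference was largest in sum for the families with the T arm. The 17 added up to 89542 RPM (ND) and 17115 RPM (HFD), a ratio of 0.191 (0.190 to 0.192), and all 17 were below 1, 14 of them at least 2 times lower. The 10 abundant T-arm families with gel reads were lower too, from 41570 to 19034 RPM, a ratio of 0.458 (0.455 to 0.460). Median family ratios were 0.147 for the 17 and 0.482 for the 10. The 3 families without the T arm added up to 5052 RPM (ND) and 5583 RPM (HFD), a ratio of 1.11 (1.09 to 1.12). With the 20 families left out, T-arm reads were 7.46% of whole ND sperm and 3.35% of whole HFD sperm, a ratio of 0.449 (0.447 to 0.451).

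Threonine tRNA supplied the most reads. Thr-a measured 39579 RPM in ND against 5711 RPM in HFD (ratio 0.144, 0.143 to 0.146), and its most abundant sequence was the same in both. Alone it was 3.96% of the ND library. Thr-b, begun 1 base later, measured 1809 and 835 RPM (ratio 0.462, 0.450 to 0.474). The 2 starts of the same stretch therefore differed in ratio by more than counting error. The 3 other Thr families had ratios of 0.147, 0.146 and 0.0657.

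The lowest ratios belonged to lysine and proline. Lys measured 9127 RPM in ND against 277 RPM in HFD (ratio 0.0304, 0.0292 to 0.0316), the lowest of the 20. Pro-a measured 6118 and 282 RPM (ratio 0.0461, 0.0443 to 0.0479). Pro-b measured 3384 and 118 RPM (ratio 0.0347, 0.0327 to 0.0369). The family between Pro-a and Pro-b, which has gel reads, had a ratio of 0.0271, so all 3 starts of the proline stretch were far below their ND level. In all, 5 of the 20 families had a ratio of 0.1 or less, and 2 of the other 60 did.

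Alanine, valine and methionine lay between. Ala measured 4364 RPM in ND against 566 RPM in HFD (ratio 0.130, 0.126 to 0.133). Val measured 2185 and 539 RPM (ratio 0.247, 0.239 to 0.254). Met, from the elongator tRNA that adds methionine within a protein, measured 4247 and 990 RPM (ratio 0.233, 0.228 to 0.238). The abundant family that begins 1 base before Met, present in the gel libraries, had a ratio of 0.517.

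The histidine family and most arginine families were nearer to their ND level. Arg-a measured 4356 RPM in ND against 1738 RPM in HFD (ratio 0.399, 0.392 to 0.406). Arg-b measured 3162 and 1507 RPM (ratio 0.477, 0.467 to 0.486). The families begun 1 base after Arg-a and Arg-b had ratios of 0.541 and 0.901, each above that of the earlier start. The Thr pair went the same way. The Pro pair did not, nor did Met, at 0.233 beside 0.517 for the start 1 base earlier. The remaining Arg family, from another tRNA, had 0.0572, so arginine spans nearly the whole range. His measured 2904 and 2039 RPM (ratio 0.702, 0.689 to 0.715).

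Of the 3 families without a T arm, 1 was at least 2 times lower in HFD. The miR-34c family measured 2519 RPM in ND against 3894 RPM in HFD (ratio 1.55, 1.52 to 1.57), the only one of the 20 above 1. The other 19 were lower in HFD, as were 63.8% of the 80 abundant families. Ser-5′ measured 1451 and 1270 RPM (ratio 0.876, 0.854 to 0.897).

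In sums over families the ratio varied with length and was lowest for long reads. Over all 20 families it was 0.441 for reads of 31 nt, 0.479 at 32 nt, 0.329 at 33 nt, 0.215 at 34 nt, 0.150 at 35 nt, 0.0939 at 36 nt, 0.0780 at 37 nt and 0.116 at 38 nt. For all other reads of the libraries it was 1.07 at 31 nt, 1.20 at 32 nt, 0.944 at 33 nt, 0.990 at 34 nt, 0.875 at 35 nt, 0.752 at 36 nt, 0.583 at 37 nt and 0.747 at 38 nt. In the 17 T-arm families reads of 30-33 nt had a ratio of 0.379, reads of 34-35 nt 0.183 and reads of 36-40 nt 0.0877. The 10 T-arm families with gel reads showed no such order, with 0.511, 0.294 and 0.618. These sums mix families that differ in length and in ratio. At 37 nt the 20 families held 11512 RPM in ND. Lys, with 83.3% of its 9127 RPM at that length, had a family ratio of 0.0304. The sums by length were not repeated without Lys. The mean length of the 17 was 34.7 nt in ND and 33.9 nt in HFD, and it was lower in HFD in 16 of them.

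At these lengths the 20 families were a large part of the ND library. They made up 44.9% of all its 35-nt reads and 52.1% of its 37-nt reads, against 12.3% and 12.7% in HFD. Over 35 to 40 nt they were 41.5% of ND reads and 9.73% of HFD reads. Over the whole gel range of 30 to 40 nt they were 17.2% and 3.67%.

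The 3′ ends differed between families, also between families of the same amino acid. Of the reads of the 20 families, 14.8% ended in CCA in ND (14.7 to 14.9) and 5.12% in HFD (5.02 to 5.21). In the 17 T-arm families the shares were 15.6% and 6.78%, while in the 10 with gel reads they were 15.8% and 28.5%, so the share was lower in HFD in one set and higher in the other. Reads of the 17 that ended in CCA had a ratio of 0.0829 and those with other ends 0.211. For the 10 the figures were 0.827 and 0.389. The values of the 17 lean on Lys, which had 86865 reads in ND, 85.3% of them ending in CCA. All 17 together had 133209 CCA-ending reads in ND. Lys also had the lowest ratio of the 20 (0.0304), and the sums were not repeated without it. The 20 families held 28.7% of all CCA-ending reads of whole ND sperm and 3.51% of those of whole HFD sperm.

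Lys fragments were mostly whole at the 3′ end. In ND 85.3% of Lys reads ended in CCA and 83.3% were 37 nt long, and in HFD 77.3% ended in CCA. The Arg family that begins nearest to the T arm came next, with 74.5% in ND and 58.8% in HFD. Its most abundant sequence, shown for its complete tail, is given here beside the full-length form of Thr-a.
Arg-c: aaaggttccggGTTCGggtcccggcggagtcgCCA
Thr-a with tail: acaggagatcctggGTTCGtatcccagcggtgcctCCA

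Most other families lacked the tail in most of their reads. Thr-a ended in CCA in 2.09% of ND reads and 1.17% of HFD reads. Among the 69.5% of its ND reads that follow the full-length form up to their end, 33.3% stopped 3 bases short of it and 38.6% stopped 4 bases short, that is without the tail, or without the tail and the last encoded base. In HFD 20.9% stopped 3 bases short and 39.7% stopped 4 bases short. A further 13.9% stopped 6 or more bases short in HFD, against 2.31% in ND. His had a like peak 4 bases short of the tail's end, 40.6% in ND and 40.1% in HFD. Met was spread over its ends, with 25.7% full-length, 29.3% short by 1 base, 21.9% by 2 and 18.6% by 3 in ND.

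Across the 17 families the CCA share ran from 0.235% to 85.3% in ND, 8 of the 17 had at least 10%, and it was lower in HFD in 12. The exceptions included Pro-a, from 0.421% to 4.68%, and the Thr family that begins ccaggggtcgcgagt, from 5.73% to 15.9%. In Ala and Val the letters CCA can also be the encoded end of the tRNA before any tail is added. For Val 22.7% of ND reads ended in CCA, but the form with both the encoded and the added CCA was 1.56% of the ND reads that follow it. In these families the letters CCA alone do not tell an encoded end from an added tail. Reads ending in CCACCA were 0.0578% of Ala and 1.56% of Val reads in ND, beside 22.9% and 22.7% ending in CCA. Both families are among the 8 and enter the summed CCA shares.

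The letter after GTTCG or GTTCA varied within each family. In reads of the 17 families with the T arm, it was T in 57.0%, G in 23.8%, A in 16.6% and C in 2.51% in ND. In HFD the shares were 56.1%, 24.2%, 17.3% and 2.33%, close to those of ND although the level differed. Outside Ala, A ranged from 6.80% to 19.9% among the families in ND. Ala was the exception, with A in 77.3% of its ND reads and 77.1% of its HFD reads. T was the majority letter in 10 of the 17 families.

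In T-arm families with gel reads the same letter was compared between whole sperm and the gel. A made up 18.1% in whole ND sperm (18.0 to 18.3) and 66.1% in the ND gel library (64.7 to 67.5). In HFD it was 20.8% (20.6 to 21.0) and 64.1% (62.4 to 65.9). The gel values rest on 4319 reads in 87 sequences of 7 families (ND) and 2925 reads in 69 sequences of 8 families (HFD), so sequences rather than reads limit their precision. By distinct sequences A was 26.9% and 27.1% in whole ND and HFD sperm, against 65.5% and 59.4% in the gel. A was not higher in the gel in every family. In 1 family it was 71.0% in the ND gel library and 73.9% in whole ND sperm, and in another it was 0% of 31 reads in 3 sequences of the HFD gel library and 7.87% in whole HFD sperm. In the family that begins 1 base before Met, A was 32.6% in the ND gel library and 10.4% in whole ND sperm, and T was the commonest letter in both. Whether the difference in this letter bears on the absence of the 20 families was not tested.

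The other side of the same tRNA was followed in detail for Lys and Pro only. A 5′ fragment family was taken as a partner when its first 7 bases could pair with the acceptor stem of the family's full-length form, shown in capitals.
Lys partner: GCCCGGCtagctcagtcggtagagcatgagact
Pro partner: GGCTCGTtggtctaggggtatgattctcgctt

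The Lys partner was in the gel libraries, with 18398 reads (1095 RPM in ND and 664 RPM in HFD), where no read began as Lys does. In whole sperm it measured 4246 RPM in ND against 2425 RPM in HFD (ratio 0.571, 0.562 to 0.581) beside 0.0304 for Lys. The Pro partner had 1745 gel reads (99.1 and 67.7 RPM) and stood at 3578 and 2169 RPM in whole sperm. Its ratio was 0.606 (0.596 to 0.617), beside 0.0347 for Pro-b. The partners were of the same length range, with means of 32.2 and 32.3 nt. The Lys match uses 2 G-T pairs and the Pro match 0. A further pairing, of 1 family with both Arg-c and the Thr family that begins ccaggggtcgcgagt, needed 3 or 4 G-T pairs and is not described. The full-length form taken for Ala ends in a CCA that may be encoded, so a partner of Ala may have been missed. The Lys and Pro partners therefore do not show how 5′ sides as a group stood in the gel libraries.

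Families near the rule's limits were as follows. Among the lowest of the 20 were Arg-c at 1234 RPM and the Thr family that begins accgaagatcgcggg at 1208 RPM in ND. The highest families without gel reads below 1000 RPM stood at 981, 948 and 873 RPM. Their most abundant sequences are shown for comparison, the first with a T arm and the others of microRNA length.
981 RPM: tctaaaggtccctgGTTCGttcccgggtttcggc
948 RPM: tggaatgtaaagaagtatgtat
873 RPM: tgaggtaggaggttgtatagtt

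In HFD these 3 stood at 1488, 1484 and 835 RPM, so the T-arm family among them was above its ND level. The abundant families with the fewest gel reads were miR-29a-3p and let-7d-5p with 1 read each and a 22-nt sequence ending in CCA with 16 reads, at 2213, 1873 and 1883 RPM in whole ND sperm. Both microRNA names come from the RefSeq table of mature mouse microRNAs (GRCm38.p6), which matched 9 of the 80 abundant families. They are shorter than the gel range, as miR-34c and Ser-5′ are.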

How the data were processed

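The authors deposited read counts per distinct small RNA sequence of mature sperm, 1 table for each of the 4 libraries, with lengths of 18 to 44 nt. The trimming tool, aligner and build are not given in the sources used here, and no molecular identifiers were recorded. The embryo and islet tables and the bisulfite libraries were not used here. Counts were summed by the first 15 bases and divided by the library total (RPM). With 1 library per diet and kind of RNA no test between diets could be made, so ratios carry exact conditional binomial intervals and shares carry exact Clopper-Pearson intervals, both 95% (Python 3.11.15, SciPy 1.17.1, pandas 2.3.3). The grouping into families, the rule that chose them and the ratio intervals were tested on simulated data, and the other steps were not. The simulated counts varied by counting error only, unlike the counts of the gel libraries. The families, the T-arm pattern and all comparisons were chosen with earlier results of these data known. The 12 families most abundant in whole ND sperm are described one by one and the rest in counts and ranges; 1 family counted in the sums is not reported here by itself. Form ends were followed from the longest sequence of a family that ends in CCA and has at least 50 reads in ND. Alternatives changed the family length, the level, the definition of absence and the scaling.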

Additional observations from a re-analysis of the deposited data

How the results depend on the processing

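The number of families was 21 with the first 12 bases, 20 with the first 18, 22 with fewer than 10 reads allowed in each gel library and 14 when no gel read could begin with the bases at 1 substitution. It moved to 46 at 500 RPM, 11 at 2000 RPM, 10 when the level was taken in HFD, 7 when the bases could lie nowhere in a gel read, and 35 when fewer than 3 times the commonest gel count was allowed, a limit added after the data were seen. The summed ratio of HFD over ND was 0.240, and 0.203 after scaling to the median of 487 families, whose own median ratio was 1.18 (log2 0.24). It was 0.200 over reads of 28 to 44 nt, 0.237 over sequences of at least 10 reads, 0.309 without Thr-a, 0.370 for families chosen in HFD and 0.854 for those without Thr-a. The families at least 2 times lower were 15, then 16 under that scaling or that length range, 13 of 16 with 1 family per group of starts, and 3 of 10 when chosen in HFD. The choice in HFD (other than for the number of families) and the grouping of starts were added after the data were seen. No family ratio crossed 1 under the scaling. Over distinct sequences the 30-40 nt share was 93.5% (ND) and 85.3% (HFD), and the CCA share 12.8% and 8.63%. No paired analysis was possible because each diet and kind of sperm RNA has 1 library. Without replicates, depth sets the counting intervals only, and the spread between males is unknown.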

Other observations

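The 3 families that reach 1000 RPM in whole HFD sperm but not in ND, and have no gel read, were all higher in HFD. They were the T-arm family beginning tctaaagg (981 RPM in ND and 1488 in HFD, ratio 1.52, 1.48 to 1.56), a 22-nt family of microRNA length (948 and 1484 RPM, ratio 1.57, 1.52 to 1.61) and a family with a mean length of 30.3 nt in HFD (693 and 1051 RPM, ratio 1.52, 1.47 to 1.56). The HFD level chose these 3, so their direction is fixed by the choice.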
